A study of Mus musculus with 60 samples.

Results

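The genes described here are the nuclear genes for subunits of the mitochondrial respiratory chain and ATP synthase, followed in mouse in vivo embryos, nuclear transfer (NT) embryos and donor cells. They were taken by gene symbol, as protein-coding genes starting with Ndufa, Ndufb, Ndufc, Ndufs, Ndufv, Uqcr, Atp5 or Cox4 to Cox8, together with Sdha, Sdhb, Sdhc, Sdhd, Cyc1 and Cycs and without the Ndufaf assembly factors. The rule itself uses no measured value, but it was set with earlier results of these data known. The rule found 86 of the 27238 genes in the table: 36 of complex I, 4 of complex II, 9 of complex III, 19 of complex IV, 17 of complex V (the ATP synthase) and Cycs, which encodes cytochrome c. The families hold 87 annotated protein-coding symbols, of which Cox8b is not analysed here.

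The oxidative phosphorylation system sits in the inner mitochondrial membrane. Complexes I and II pass electrons to ubiquinone, complex III passes them on to cytochrome c, complex IV hands them to oxygen, and complex V uses the resulting proton gradient to make ATP. Most subunits are encoded in the nucleus, a few core ones in the mitochondrial genome, and several subunits of complex IV exist as alternative isoforms from separate genes. The mouse oocyte carries a large maternal stock of mitochondria, and the early embryo before implantation takes up pyruvate as its main fuel.

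Single embryos of 3 types were sequenced at 6 stages, from the 1-cell embryo through the 2-cell, 4-cell and 8-cell stages and the morula to the blastula, and so were the donor cells. Each of the 20 groups has 3 libraries, 60 in all. The in vivo embryos came from superovulated C57BL/6 females mated with DBA2 males. NTC embryos were made with the nuclei of cumulus cells (CC) of BDF1 females, and NTM embryos with nuclei of mouse embryonic fibroblasts (MEF) of BDF1 fetuses, which had been passaged and serum-starved. Both were injected into enucleated BDF1 oocytes, activated with strontium in the presence of the histone deacetylase inhibitor Scriptaid, and cultured in vitro. The NT embryos therefore differ from in vivo embryos in the nucleus, the strain of the egg, the activation, Scriptaid and the culture, and these cannot be told apart. Embryos of all types were chosen by their morphology. BDF1 (C57BL/6 × DBA2) is the background of all groups. In single embryos amplified before sequencing, fewer cells of a type and less RNA per cell cannot be told apart either.

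The reads on genes, recovered from the steps between the values, ranged from 5294167 to 47830132 per library (median 15451428.5), and every donor library was deeper than every embryo library. At these depths 3 reads on a subunit gene of median length equalled 0.0397 to 0.359 RPKM (reads per kilobase of exon, scaled to the same total of reads on genes in each library), the most that a value of 0 allows by counting alone. The labels could be checked against marker genes. All 12 fibroblast markers had a mean above 1 RPKM in MEFs, and all 12 oocyte markers did in 1-cell embryos of the 3 types. Of 10 trophectoderm markers 9 or 10 did in the blastulas, and 8 already in the morulas of each type. Of 8 inner cell mass markers 7 did in in vivo, 4 in NTC and 5 in NTM blastulas. The sum of the cumulus markers was as high in MEFs (552 to 1296 RPKM) as in CCs (504 to 805 RPKM) and did not tell the donor cells apart. Of these 13 markers 9 had a mean above 1 RPKM in CCs and 6 in MEFs, and 4 and 2 were 0 in all 3 libraries. Reads on the mitochondrial genome took 2.19 to 64.2% of a library, 29.6 to 40.4% in NTC and NTM 4-cell embryos and 5.68 to 8.87% in the in vivo 4-cell embryos. Scaled to nuclear reads alone, the median level of the subunit genes given below as 5.71, 2.55 and 2.95 in in vivo, NTC and NTM 4-cell embryos was 5.81, 3.03 and 3.51 on the log2(RPKM + 1) scale.

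The 3 in vivo 4-cell libraries stood apart from all others in the subunit genes themselves. The subunit genes took 2.02 to 2.26% of their summed RPKM, against 0.166 to 0.185% in in vivo 2-cell embryos, 0.326 to 0.463% in in vivo 8-cell embryos, 0.425 to 0.475% in NTC and 0.404 to 0.531% in NTM 4-cell embryos. Outside them the highest embryo share was 1.22%, in an in vivo blastula, and the donor cells reached 0.904 to 1.20%. As a share of the RPKM of nuclear genes alone the gap was smaller, with 2.32 to 2.55% in in vivo 4-cell, 0.853 to 0.944% in in vivo 8-cell, 0.901 to 1.07% in NTC 4-cell and 0.791 to 1.30% in NTM 4-cell embryos and up to 1.93% in in vivo blastulas. The order of the subunit genes also differed. Over the 86 genes, the Spearman correlation of the group means of in vivo 4-cell embryos with the 19 other groups was 0.28 to 0.54, whereas the other 11 groups from the 4-cell stage on correlated with each other at 0.83 to 0.99, and CCs with MEFs at 0.96. These are correlations across genes that share libraries and depth, given as a description. The 3 libraries were alike, with correlations of 0.96 to 0.98 with each other. Whether this group was prepared or sequenced in another way is not given in the sources used here, and such a difference cannot be told apart from the stage in any comparison with it.

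**Figure D1:**
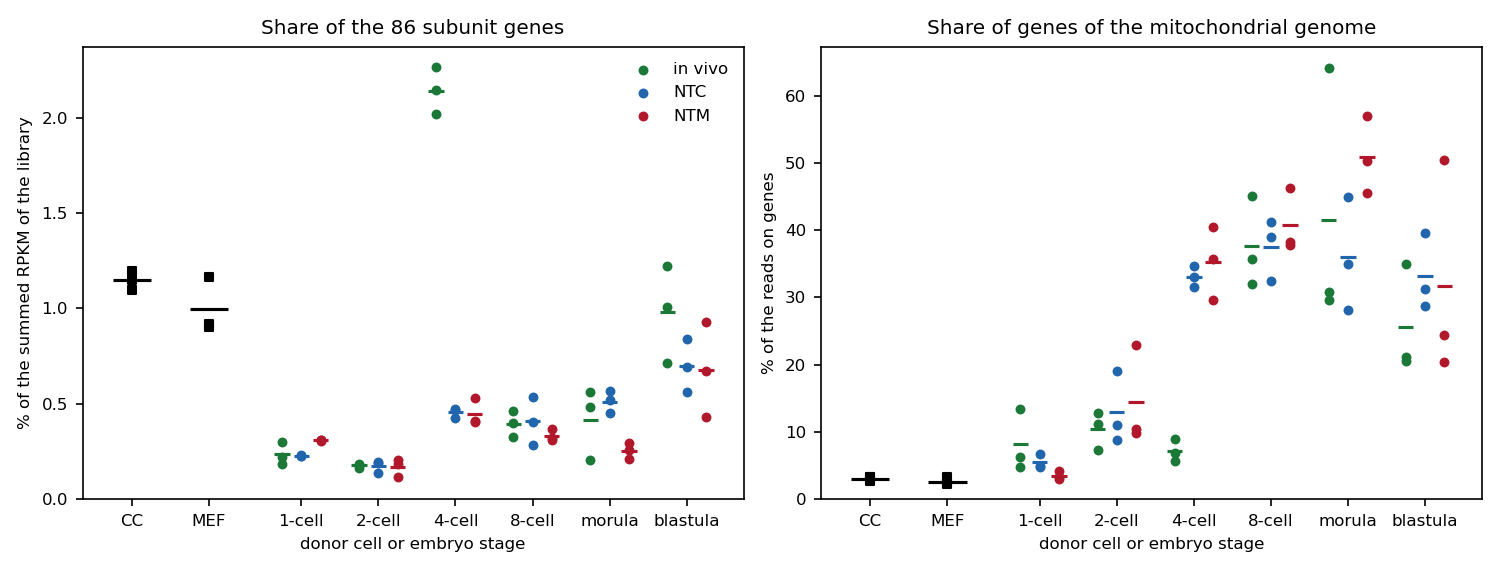
Left, the share of the summed RPKM of each library taken by the 86 subunit genes (in %), and right, the share of reads on genes of the mitochondrial genome (in %), by donor cell or embryo stage; each point is 1 library and the bars are the means of 3. The in vivo 4-cell libraries lie highest on the left (2.02 to 2.26%) and, among embryos from the 4-cell stage on, lowest on the right (5.68 to 8.87%).

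In 34 of the 83 subunit genes with a mean of at least 0.5 RPKM, the lowest in vivo 4-cell library lay above the highest of the other 57 libraries, and 6.95% of all genes at that level did the same. Uqcr10, a small accessory subunit of complex III, had 2361, 2100.4 and 2288 RPKM in the in vivo 4-cell libraries. Nowhere else did it pass 51.2 RPKM, and in CCs and MEFs it lay at 3.37 to 9.12 RPKM. Ndufa2, an accessory subunit of complex I, read 472, 266 and 244 RPKM there and at most 15.8 RPKM in the other 57 libraries. Ndufa13 (GRIM-19), also of complex I, read 262, 152 and 164 RPKM against at most 8.27 RPKM. All 3 genes are among the 34, so their lack of overlap with the other libraries follows from how the 34 were counted and adds nothing to it.

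Some genes of the ATP synthase, Atp5j among them, also lay above all other libraries in in vivo 4-cell embryos. Others, such as Atp5b, did not. Atp5j, which encodes coupling factor 6 of the peripheral stalk, had 67.4, 65.3 and 99.2 RPKM in the in vivo 4-cell libraries. It had 0.421 to 4.35 RPKM in the donor cells, where Atp5b, the catalytic beta subunit, stood at 288 to 693 RPKM. Atp5b itself had 217, 330.2 and 334 RPKM in the in vivo 4-cell libraries, so that Atp5j and Atp5b lay closer together there than in the donor cells. Other genes of the complex lay far apart, with 4.45 RPKM for Atp5j2 and 512 RPKM for Atp5mpl in their lowest in vivo 4-cell library. Ndufb2, a complex I subunit, stayed at or below 3.18 RPKM in all 60 libraries. A total of 34 subunit genes were above 0 in every library, and 8 never reached 10 RPKM.

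Fibroblast markers were low in the in vivo 4-cell libraries, whereas markers of cumulus cells and erythrocytes summed higher there than in the other in vivo groups. The summed RPKM of the 12 fibroblast markers was 0.356 to 1.19 there (9167 to 11775 in MEFs), with 5 of the 12 at 0 in all 3 libraries. That of the 13 cumulus markers was 14.3 to 19.1, with 9 at 0 and only 1 with a mean above 1 RPKM. It was 0.918 to 2.67 in in vivo 2-cell and 0.265 to 4.04 in in vivo 8-cell embryos. The 3 erythrocyte markers summed to 6.12 to 23.3 RPKM, all from 1 gene, against at most 2.27 RPKM in NTC and NTM 4-cell embryos. The highest sum in any other group was 4.19 RPKM, in an NTC 2-cell embryo. In NTC and NTM 4-cell embryos the fibroblast markers summed to at most 0.0468 and 22.3 RPKM and the cumulus markers to at most 55.7 and 56.0 RPKM. There too only 1 cumulus marker had a mean above 1 RPKM, and 10 and 12 of the 13 were at 0 in all 3 libraries. The part of these values in the result was not tested.

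The subunit genes were low in 1-cell and 2-cell embryos of all 3 types and higher from the 4-cell stage on. The median subunit gene had a mean log2(RPKM + 1) level of 1.20, 1.39 and 1.47 in in vivo, NTC and NTM 1-cell embryos and of 0.96, 1.21 and 1.12 in 2-cell embryos. It then stood at 5.71 in in vivo, 2.55 in NTC and 2.95 in NTM 4-cell embryos, and at 2.71, 2.75 and 2.68 in the 3 types at the 8-cell stage. In blastulas it reached 3.31, 3.59 and 3.47, close to CCs (3.73) and MEFs (3.47). Of the 86 genes, 55 had their highest embryo group mean in in vivo 4-cell embryos and 16 in in vivo blastulas. Complex V had the highest median level of the 5 complexes in every embryo group from the 4-cell stage on.

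**Figure D2:**
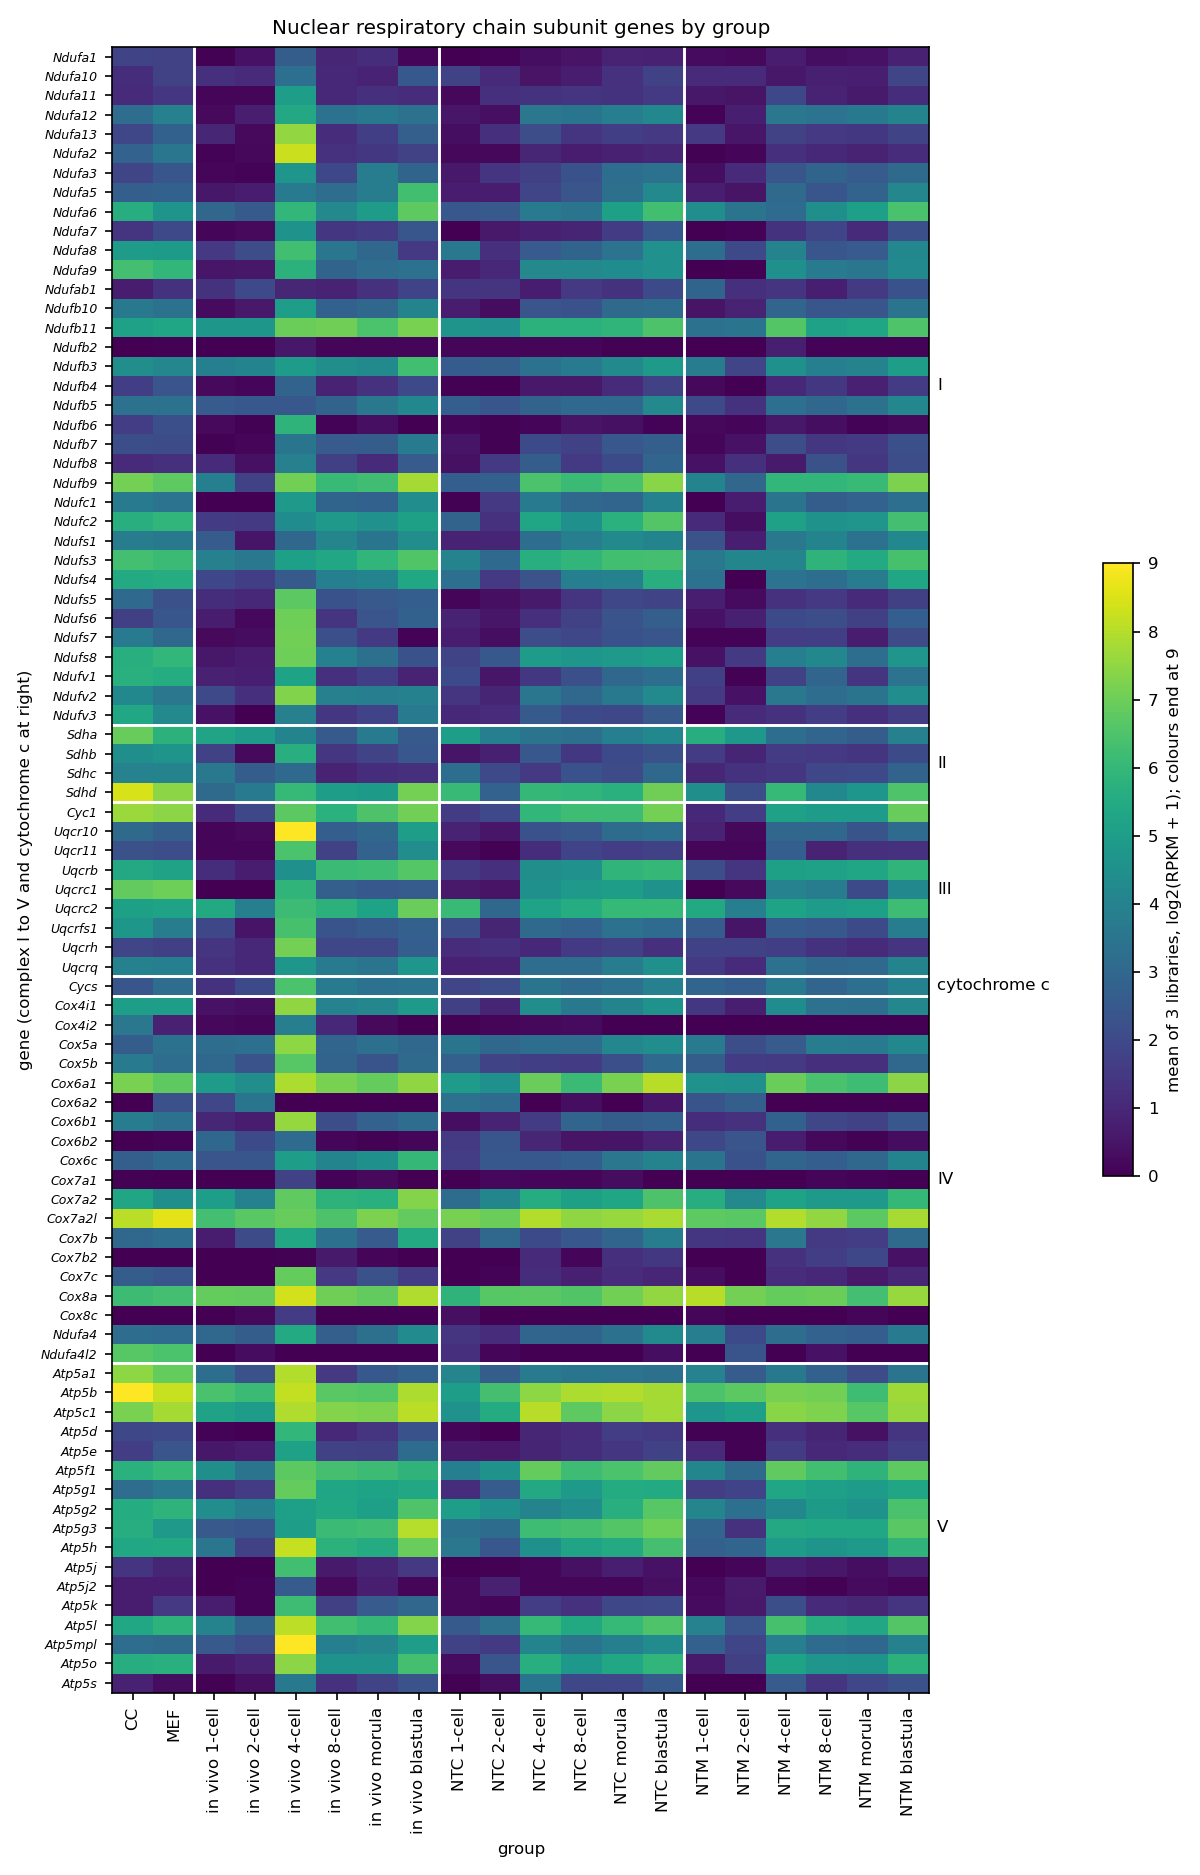
The mean log2(RPKM + 1) of the 3 libraries of each group (colour) for 85 of the 86 subunit genes, ordered by complex I, II and III, cytochrome c, complex IV and complex V, in CCs, MEFs and the 6 stages of in vivo, NTC and NTM embryos. The in vivo 4-cell column is the brightest, with a median gene at 5.71, and differs in pattern from its neighbours, and the 1-cell and 2-cell columns are the darkest.

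Between 2-cell and 4-cell embryos, around the main activation of the embryonic genome, genes of every complex rose in vivo. A gene was called when limma on log2(RPKM + 1) gave an adjusted p (Benjamini-Hochberg over all genes tested) under 0.05 and a log2 change of at least 1 in size. Of the 83 subunit genes tested in in vivo embryos 71 rose and 1 fell, where 31.4% of all genes tested rose and 20.8% fell. In NTC embryos 36 of 75 rose and 1 fell (16.4% and 20.1% of all genes). In NTM embryos 26 of 79 rose and none fell (12.1% and 14.3% of all genes), with 40 of the 79 at an unadjusted p under 0.05. The median change of the subunit genes was +3.93 for in vivo, +1.34 for NTC and +1.54 for NTM embryos on the log2 scale, where the median of all genes tested was +0.36, -0.20 and -0.20. The NTM count was the least stable: it was 15 without NTM 4-cell replicate 1, 17 without NTM 2-cell replicate 2 and 16 without NTM 2-cell replicate 3. It was 16 without the filter on low values and 51 in one fit over all 20 groups, where the NTC count was 38.

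Within the complexes, 30 of 35 complex I genes tested, 2 of 4 of complex II, 8 of 9 of complex III, 14 of 17 of complex IV and 16 of 17 of complex V rose in in vivo embryos. In NTC embryos these counts were 12 of 31, 2 of 4, 7 of 9, 4 of 15 and 11 of 15, and in NTM embryos 11 of 34, 1 of 4, 5 of 9, 2 of 16 and 7 of 15. Of the 5 complexes, IV had the smallest share of genes that rose in both NT types. A difference between complexes was not tested.

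In all 3 embryo types 21 subunit genes rose between these stages, which is 29.6% of those that rose in vivo, 58.3% of those in NTC and 80.8% of those in NTM embryos. They are Ndufa9, Ndufa12, Ndufb9, Ndufc1, Ndufc2, Ndufs1 and Ndufv2 of complex I, Sdhd of complex II, Cyc1, Uqcr10, Uqcrb and Uqcrc1 of complex III, Cox4i1 and Cox6a1 of complex IV, and Atp5c1, Atp5f1, Atp5g1, Atp5g3, Atp5l, Atp5o and Atp5s of complex V. Another 33 genes were called in in vivo embryos alone, 2 (Ndufs3 and Uqcrc2) in NTC embryos alone and 1 (Ndufs4) in NTM embryos alone. Over all genes tested 31.4%, 16.4% and 12.1% rose in in vivo, NTC and NTM embryos, and their overlap was not counted.

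Promoters of subunit genes are known for sites of NRF1, of ETS-family factors such as GABP and of YY1. Windows from 250 bases before to 50 after the start of transcription were available from RefSeq (GRCm38.p6) for 69 of the 86 genes. The letters CGCATGCG (NRF1, the same on both strands) occurred in 10 of the 69 genes, or 14.5%. They occurred in 2.07% of all 27025 genes with a window and in 2.77% of the protein-coding ones. CCGGAAG or its other strand CTTCCGG (ETS) occurred in 16 (23.2%, against 9.93% of all and 12.9% of protein-coding genes). AAGATGGC or its other strand GCCATCTT (YY1) occurred in 10 (14.5%, against 3.19% of all and 3.57% of protein-coding genes). At least one of the motifs was found in 30 (43.5% against 14.1%, or 17.8% of the 17491 protein-coding genes). Among the 21 genes that rose in all 3 types, 16 had a window and 7 of these held a motif, and of the other 53 genes with a window 23 did. The 250 bases before the start, on the strand of the gene, are given for 3 of the genes that rose in all 3 embryo types and hold an NRF1 or ETS motif. They are Sdhd at chr9:50603850-50604099, Cox6a1 at chr5:115348959-115349208 and Atp5l at chr9:44920743-44920992, all on the minus strand of GRCm38.p6, and the motif letters are in capitals.
Sdhd: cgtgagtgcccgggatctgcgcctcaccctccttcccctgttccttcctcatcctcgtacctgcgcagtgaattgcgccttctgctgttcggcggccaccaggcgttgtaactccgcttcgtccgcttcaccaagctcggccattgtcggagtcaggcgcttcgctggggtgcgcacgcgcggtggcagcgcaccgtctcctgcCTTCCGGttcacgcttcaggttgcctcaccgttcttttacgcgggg
Cox6a1: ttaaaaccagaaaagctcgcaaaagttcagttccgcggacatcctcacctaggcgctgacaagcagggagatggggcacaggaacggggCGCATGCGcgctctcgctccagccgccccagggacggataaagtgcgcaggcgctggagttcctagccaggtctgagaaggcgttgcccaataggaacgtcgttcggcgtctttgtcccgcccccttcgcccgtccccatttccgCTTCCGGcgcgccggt
Atp5l: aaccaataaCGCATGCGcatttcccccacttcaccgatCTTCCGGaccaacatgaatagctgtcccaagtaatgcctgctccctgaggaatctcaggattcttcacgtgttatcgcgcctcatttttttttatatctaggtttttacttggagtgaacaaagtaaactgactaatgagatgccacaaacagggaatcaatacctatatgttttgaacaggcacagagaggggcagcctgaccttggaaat
Counted from the start, the ETS letters lie at -46 to -40 in Sdhd, at -16 to -10 in Cox6a1 and at -212 to -206 in Atp5l, and the NRF1 letters at -161 to -154 in Cox6a1 and at -241 to -234 in Atp5l. A match describes the letters only, and binding was not measured.

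Cyc1 encodes cytochrome c1, the subunit of complex III that reduces cytochrome c. It had 2.07, 0.0603 and 16.8 RPKM in in vivo 2-cell embryos and 85.5, 120.2 and 115 RPKM in 4-cell embryos. The NTC libraries went from 0.213, 3.99 and 9.18 to 59.9, 107 and 36.8 RPKM, and the NTM libraries from 5.04, 3.65 and 0.0676 to 42.1, 32.5 and 30.4 RPKM. The 2-cell and 4-cell libraries did not overlap in any type. The log2 changes were +4.78 ± 0.94 (SE, adjusted p = 0.00438) in in vivo, +3.99 ± 0.78 (SE, adjusted p = 0.00484) in NTC and +3.52 ± 0.77 (SE, adjusted p = 0.0112) in NTM embryos. In blastulas Cyc1 read 51.9 to 283 RPKM over the 3 types, a range that spans the donor cells (165 to 211 RPKM).

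Cox4i1, the common form of a regulatory subunit of complex IV, whose exons overlap those of Emc8 over 9.94% of their length, rose from 0.0693, 0.557 and 0.234 to 219.7, 166 and 165 RPKM in in vivo embryos. The NTC libraries went from 0.164, 1.08 and 1.83 to 19.1, 20.7 and 22.1 RPKM and the NTM libraries from 3.13, 0.0938 and 0.0521 to 20.9, 17.0 and 22.4 RPKM. All 9 values at the 4-cell stage lay above all 9 at the 2-cell stage, and the in vivo 4-cell values lay far above those of both NT types. The changes were +7.17 ± 0.35 (SE, adjusted p = 2.15e-05), +3.51 ± 0.49 (SE, adjusted p = 0.00105) and +3.64 ± 0.73 (SE, adjusted p = 0.00756) on the log2 scale.

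Uqcrc1, a core protein of complex III, was at or near 0 in 2-cell embryos (at most 1.66 RPKM). At the 4-cell stage it had 44.0, 71.3 and 65.0 RPKM in in vivo embryos, 9.30, 32.4 and 35.2 RPKM in NTC embryos and 20.9, 3.19 and 42.4 RPKM in NTM embryos. Its change of +4.04 ± 0.66 (SE, adjusted p = 0.00209) was the largest of a subunit gene in NTC embryos. Ndufc2, a membrane-arm subunit of complex I, changed most in NTM embryos, from 0.203, 0.0964 and 0.535 to 81.3, 29.3 and 17.2 RPKM (+4.82 ± 0.72 SE, adjusted p = 0.00237). Ndufa9, also of complex I, went from 0.0972, 0 and 0 to 14.7, 43.1 and 17.0 RPKM in the same embryos (+4.49 ± 0.66 SE, adjusted p = 0.00217). For these genes the NT libraries at the 2-cell and 4-cell stages did not overlap.

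Subunits that bear the redox centres of complexes I and II did not all move this way. Ndufs1, the largest iron-sulfur subunit of complex I, rose in every type, by +2.49 ± 0.48 (SE, adjusted p = 0.00383) in in vivo, +2.33 ± 0.66 (SE, adjusted p = 0.0242) in NTC and +2.83 ± 0.80 (SE, adjusted p = 0.0309) in NTM embryos. Ndufv1, which holds the flavin that takes electrons from NADH, rose in in vivo embryos, to 27.7, 54.2 and 32.1 RPKM (+4.47 ± 0.38 SE, adjusted p = 0.000112). In NTC 4-cell embryos Ndufv1 had 0, 1.07 and 8.70 RPKM, which overlapped its 2-cell values of 0, 0.0664 and 1.95 RPKM (adjusted p = 0.427). In NTM 4-cell embryos it had 2.17, 0.0406 and 10.6 RPKM (adjusted p = 0.186).

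Sdha, the flavoprotein of complex II, was already present at the 1-cell stage, at 27.9 to 56.4 RPKM over the 3 types. It had 25.9, 27.7 and 39.3 RPKM in in vivo 2-cell and 11.5, 23.5 and 13.9 RPKM in 4-cell embryos. These values did not overlap, but the change of -0.92 ± 0.40 (SE) had an adjusted p of 0.0903, and it was 0.487 in NTC and 0.198 in NTM embryos. Its partner Sdhb, the iron-sulfur subunit, rose from 0.480, 0 and 0.0811 to 66.3, 30.5 and 56.6 RPKM in in vivo embryos (+5.41 ± 0.42 SE, adjusted p = 7.80e-05). In NTC embryos Sdhb rose to 5.10, 6.26 and 2.61 RPKM (+1.66 ± 0.52 SE, adjusted p = 0.0358), and in NTM embryos its adjusted p was 0.488.

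Cycs, cytochrome c itself, had 116, 56.7 and 96.3 RPKM in in vivo 4-cell embryos after 1.75, 2.05 and 6.84 RPKM (+4.43 ± 0.53 SE, adjusted p = 0.000412). The NTC 4-cell values of 4.62, 19.6 and 10.3 RPKM overlapped the 2-cell values (adjusted p = 0.158), and in NTM embryos the adjusted p was 0.258. Cycs has 3 near-identical copies, so its reads are uncertain. Atp5a1, the alpha subunit of ATP synthase, rose from 4.68, 3.31 and 3.24 to 179.6, 303 and 283 RPKM in in vivo embryos (+5.73 ± 0.36 SE, adjusted p = 4.14e-05). In NTC embryos Atp5a1 stood at 8.19, 14.7 and 15.9 RPKM and in NTM embryos at 3.48, 14.5 and 27.1 RPKM, with adjusted p of 0.229 and 0.439. Its partner Atp5b was high throughout, at 37.8 to 175 RPKM in 2-cell embryos of the 3 types. Atp5b changed by +2.06 ± 0.51 (SE, adjusted p = 0.0119) in in vivo and +1.10 ± 0.31 (SE, adjusted p = 0.0251) in NTC embryos, with an adjusted p of 0.613 in NTM embryos.

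**Figure D3:**
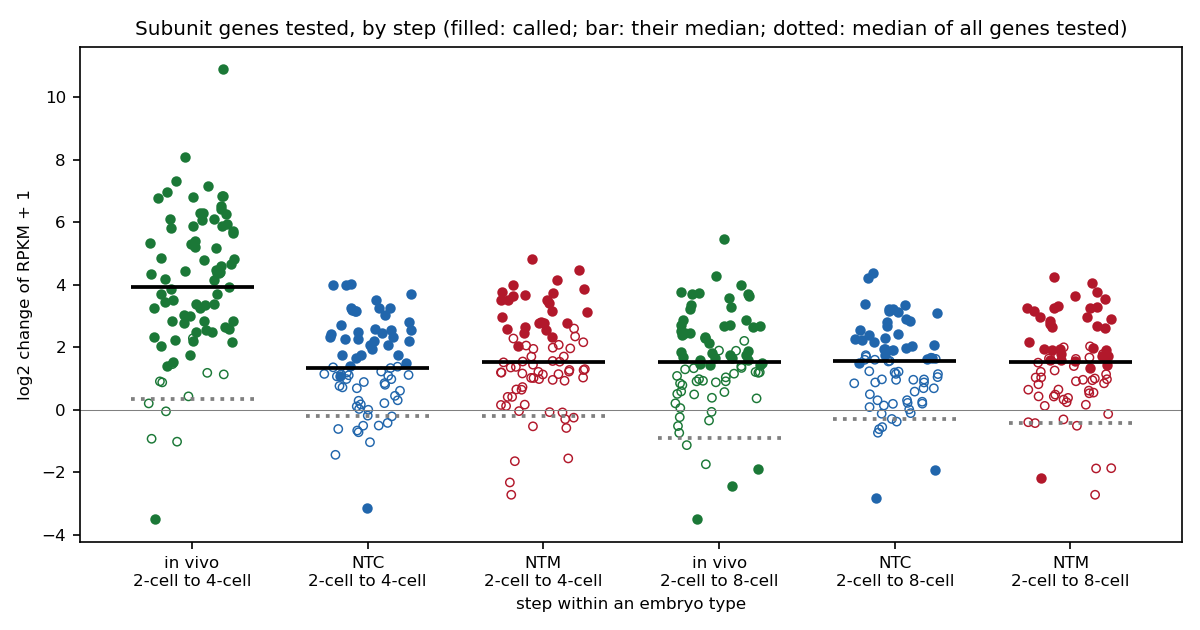
The log2 change of RPKM + 1 of each subunit gene tested between 2-cell and 4-cell embryos (left) and between 2-cell and 8-cell embryos (right) in the 3 embryo types; filled points were called, solid bars are the medians of the subunit genes and dotted lines those of all genes tested. The in vivo 4-cell step has a median of +3.93, while the other 5 steps lie at +1.34 to +1.56.

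The largest rises in in vivo embryos were those of genes that stood apart in the 4-cell libraries, and both traits rest on the same 3 libraries. Uqcr10 rose by +10.89 ± 0.31 (SE, adjusted p = 1.63e-05), Ndufa2 by +8.10 ± 0.39 (SE, adjusted p = 2.14e-05) and Ndufa13 by +7.34 ± 0.38 (SE, adjusted p = 2.45e-05) on the log2 scale. Between 4-cell and 8-cell embryos they fell again. A total of 60 of 82 subunit genes fell and 2 rose in this step (39.3% and 4.40% of all genes tested), with a median of -2.30 against -1.05 for all genes. The falls of Uqcr10, -8.45 ± 0.41, Ndufa2, -7.02 ± 0.36, and Atp5a1, -6.47 ± 0.43 (SE), were the largest. The genes that rose were Uqcrb, a small complex III subunit with near-identical copies, by +1.61 ± 0.28 (SE, adjusted p = 0.00308), and Atp5g3, one of the genes for the c-ring of ATP synthase, by +1.12 ± 0.27 (SE, adjusted p = 0.0128). Without in vivo 8-cell replicate 2 the Atp5g3 change was +0.97, under the fold threshold.

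At the 4-cell stage, most subunit genes were lower in NT than in in vivo embryos. In NTC embryos 57 of 83 were lower and 2 higher (20.4% and 7.40% of all genes), and in NTM embryos 45 of 84 were lower and none higher (17.8% of all genes lower). Both comparisons use the same in vivo libraries. The median difference was -2.17 for NTC and -2.11 for NTM, and -0.39 and -0.69 over all genes tested. By complex, 24 of 35 genes of complex I, 2 of 4 of II, 5 of 9 of III, 14 of 17 of IV and 11 of 17 of V were lower in NTC embryos, and 17 of 36, 1 of 4, 5 of 9, 10 of 17 and 11 of 17 in NTM embryos. Uqcr10 differed by -8.85 ± 0.26 (SE, adjusted p = 1.06e-06) in NTC and -8.17 ± 0.52 (SE, adjusted p = 0.000157) in NTM embryos.

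Cox5a, an accessory subunit of complex IV without a redox centre, was -4.23 ± 0.36 (SE) in NTC and -4.88 ± 0.50 in NTM embryos relative to in vivo. Its NTC 4-cell values were 7.59, 14.1 and 5.51 RPKM and its NTM values 6.91, 2.08 and 7.94 RPKM, beside 181, 158 and 193 RPKM in vivo. Of the catalytic and electron-carrying genes, Atp5a1 differed by -4.21 ± 0.35 and -4.32 ± 0.66, Uqcrfs1, the Rieske iron-sulfur protein of complex III, by -3.25 ± 0.33 and -3.77 ± 0.63, and Sdhb by -3.19 ± 0.43 and -4.04 ± 0.61. All of these, Cox5a included, were called in both NT types. Ndufs1 was not called in either (adjusted p = 0.697 and 0.582), nor was Sdha (0.365 and 0.417) or Atp5b (0.0552 and 0.123). Higher in NTC embryos were Atp5g3 (+1.19 ± 0.26 SE, adjusted p = 0.00893) and Cox7a2l, which promotes supercomplexes of III and IV (+1.06 ± 0.25 SE, adjusted p = 0.0146). Cox7a2l has a near-identical copy, and without in vivo 4-cell replicate 1 or 3 its difference was +0.91 or +0.98, under the fold threshold.

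The difference between the steps themselves was tested as an interaction of stage and embryo type over 2-cell and 4-cell embryos. It was called for 46 of 84 subunit genes in NTC and for 32 of 85 in NTM embryos, all with a smaller rise than in vivo, where 12.0% and 8.05% of all genes tested were called in this direction. The median interaction was -2.42 for NTC and -2.04 for NTM. Uqcr10 had the largest, -9.15 ± 0.54 (SE, adjusted p = 6.11e-06) for NTC and -8.13 ± 0.76 (SE, adjusted p = 0.000150) for NTM.

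The in vivo values of the 4-cell stage enter all of these differences. When 8-cell embryos took the place of 4-cell embryos, a comparison added after the data had been seen, 40 of 78 subunit genes rose and 3 fell in in vivo embryos (13.8% and 27.8% of all genes tested). In NTC embryos 30 of 74 rose and 2 fell (14.1% and 21.0%), and in NTM embryos 33 of 76 rose and 1 fell (17.9% and 21.9%). The medians were +1.54, +1.56 and +1.53, and those of all genes -0.89, -0.29 and -0.42. The interaction with embryo type over these stages, which replaces the 4-cell libraries of in vivo and NT embryos alike, was called for 0 of 76 subunit genes in NTC and 0 of 79 in NTM embryos (limma, 5 and 4 at an unadjusted p under 0.05), where 0.219% and 0.577% of all genes were called. Set against in vivo 8-cell embryos in place of in vivo 4-cell embryos, NTC 4-cell embryos differed in 3 of 78 subunit genes (10.2% of all genes) and NTM 4-cell embryos in 0 of 79 (1.10% of all genes, 3 subunit genes at an unadjusted p under 0.05). The 3 were Atp5a1 (+2.26 ± 0.59), Cox7a2l (+1.50 ± 0.30) and Uqcrb (-1.69 ± 0.42). That comparison is between stages and cannot separate stage from type.

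**Figure D4:**
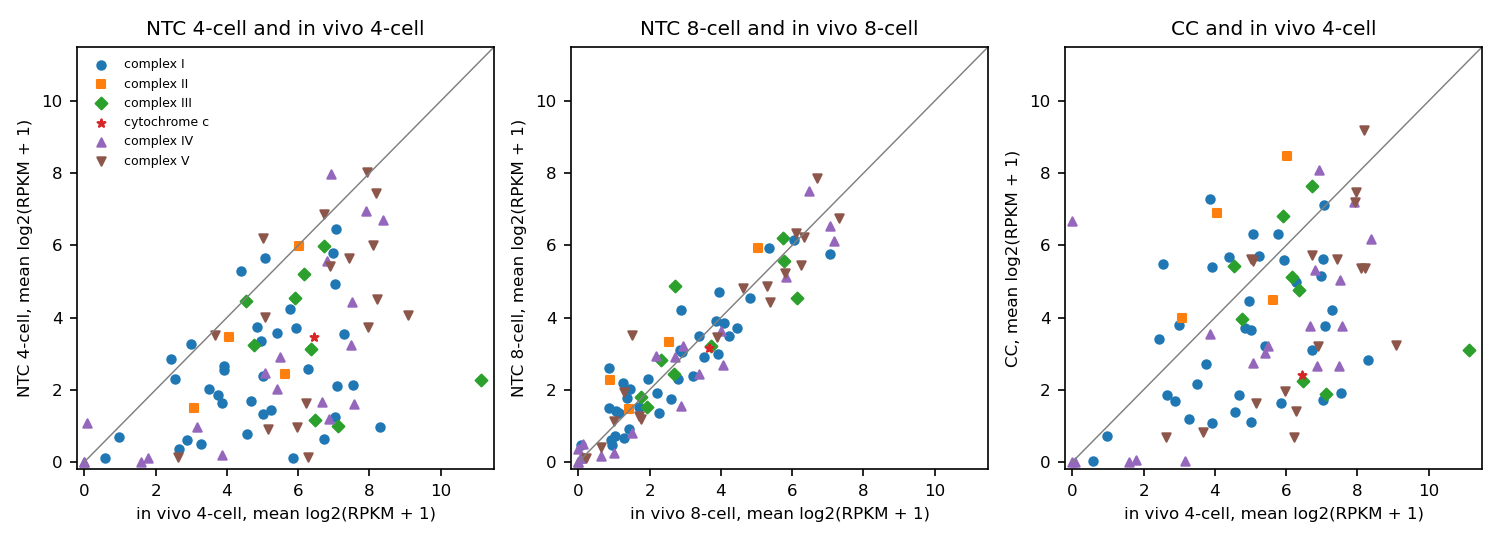
Mean log2(RPKM + 1) of the 3 libraries of 2 groups for each of the 86 subunit genes, with NTC against in vivo embryos at the 4-cell (left) and 8-cell stage (middle) and CCs against in vivo 4-cell embryos (right); symbols mark the complex and the line marks equal levels. At the 4-cell stage most genes fall below the line with wide scatter, and at the 8-cell stage they lie along it.

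From 2-cell to 8-cell embryos 19 subunit genes rose in all 3 types, which is 47.5%, 63.3% and 57.6% of those that rose in in vivo, NTC and NTM embryos. Over all genes tested 13.8%, 14.1% and 17.9% rose, and their overlap was not counted. Among subunit genes Uqcrb had the largest rise in in vivo embryos (+5.47 ± 0.45 SE, adjusted p = 0.000161), Uqcrc1 in NTC embryos (+4.38 ± 0.53 SE, adjusted p = 0.000514) and Ndufc2 in NTM embryos (+4.26 ± 0.41 SE, adjusted p = 0.000229). Sdha fell in in vivo embryos over this interval, from 25.9, 27.7 and 39.3 to 7.41, 9.74 and 1.20 RPKM (-2.43 ± 0.67 SE, adjusted p = 0.0212).

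The isoforms of complex IV changed over the same period. Cox6a2, the form of subunit VIa known from heart and skeletal muscle, was present in early embryos, with 20.5, 13.1 and 3.74 RPKM in in vivo, 5.10, 10.3 and 9.17 RPKM in NTC and 0.225, 21.1 and 9.50 RPKM in NTM 2-cell embryos. It was 0 in all 3 libraries of each type at the 4-cell stage, and later reached at most 0.891 RPKM, in NTC embryos. Its change was -3.50 ± 0.58 (SE, adjusted p = 0.00195) in in vivo and -3.15 ± 0.48 (SE, adjusted p = 0.00152) in NTC embryos, and in NTM embryos, where replicate 1 at the 2-cell stage was low, the adjusted p was 0.0841. Against 4-cell libraries at 0 the size of these changes depends on the pseudocount. Cox6a1, the common form, rose in all 3 types. It spanned 11.5 to 33.4 RPKM over the 9 libraries of 2-cell embryos and 64.7 to 257 RPKM over those of 4-cell embryos. In the donor cells Cox6a2 was 0 in CCs and 2.06, 2.42 and 8.95 RPKM in MEFs.

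Cox6b2, a form known from testis, was also read mainly in early embryos. Its counterpart Cox6b1 had 0.503 to 2.24 RPKM in the 9 libraries of 2-cell embryos, 197, 159.9 and 212 RPKM in in vivo 4-cell embryos and 1.67 to 7.50 RPKM in NT 4-cell embryos. Cox6b2 had 1.30 to 18.3 RPKM at the 1-cell and 1.90 to 6.82 RPKM at the 2-cell stage, and at most 1.42 RPKM in 8-cell embryos. Between 2-cell and 8-cell embryos it fell, with changes of -1.88 ± 0.44, -1.94 ± 0.55 and -2.17 ± 0.52 (SE) in in vivo, NTC and NTM embryos, with adjusted p of 0.0107, 0.0250 and 0.0121. The in vivo 4-cell libraries lay off this course, with 19.8, 6.12 and 3.70 RPKM. They also held 33.3, 9.54 and 7.54 RPKM of Cox4i2, the form of subunit IV known from lung and hypoxia, which other embryo groups had at no more than 1.42 RPKM. Cox7a1, a muscle form, and Cox8c, a testis form, passed 1 RPKM nowhere but in these libraries, at 2.09, 1.48 and 4.21 and 2.56, 1.41 and 2.19 RPKM.

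In the donor cells, Ndufa4l2, a hypoxia-induced relative of the complex IV subunit Ndufa4, read 17.1, 456 and 127 RPKM in CCs and 87.6, 155 and 48.6 RPKM in MEFs. It was 0 in 45 of the 54 embryo libraries. The highest embryo value was 27.8 RPKM, in an NTM 2-cell embryo. Cox4i2 varied between the CC libraries (5.33, 53.6 and 3.70 RPKM). Cox7b2, a form known from testis, was 0 in all donor, 1-cell and 2-cell libraries and had at most 5.61 RPKM in later embryos.

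**Figure D5:**
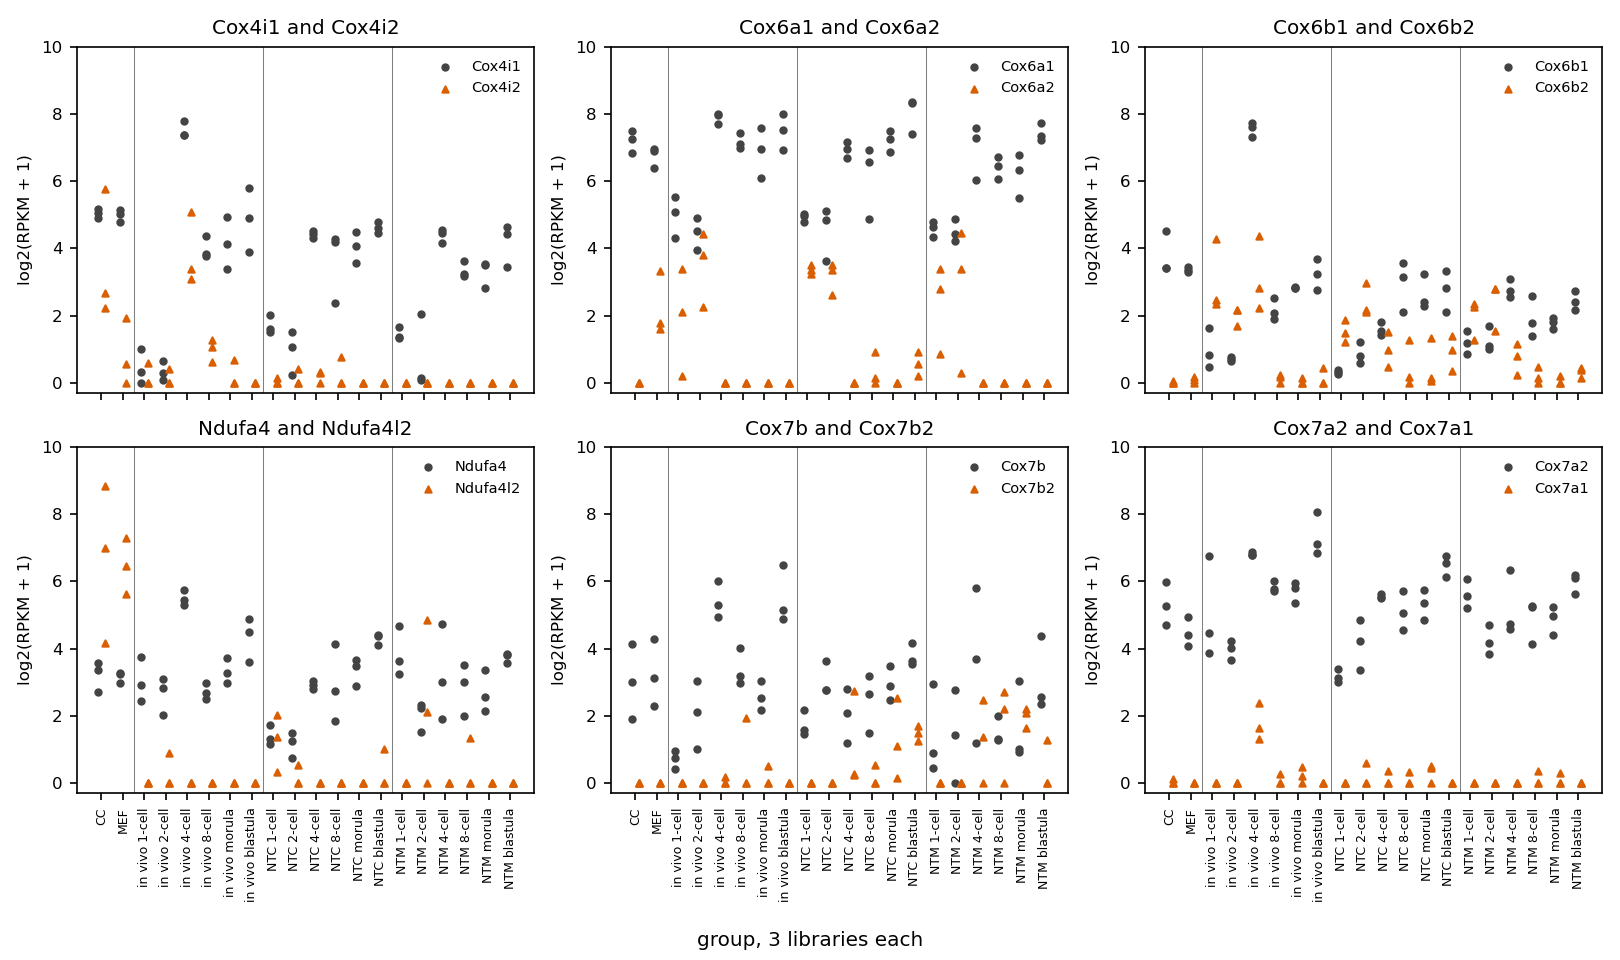
log2(RPKM + 1) in each library for 6 pairs of isoforms of complex IV, with the common form as grey points and the alternative form as orange triangles, by group of 3 libraries. Cox6a2 is seen in 1-cell and 2-cell embryos and MEFs and is 0 in 4-cell embryos, and Ndufa4l2 is high in both donor cells (17.1 to 456 RPKM).

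The c-ring of ATP synthase is encoded by 3 genes for the same mature protein. Atp5g1, which has a near-identical copy, rose between 2-cell and 4-cell embryos by +5.33 ± 0.61, +2.83 ± 0.39 and +3.50 ± 0.69 (SE) in in vivo, NTC and NTM embryos. Atp5g3 rose by +2.59 ± 0.47, +3.03 ± 0.40 and +4.14 ± 0.83. Atp5g2 was not called in any type (adjusted p = 0.0564, 0.396 and 0.450) and already had 2.62 to 29.0 RPKM at the 2-cell stage. In blastulas Atp5g3 led in vivo, with 214, 277 and 276 RPKM beside 85.3, 83.1 and 109 RPKM of Atp5g2 and 26.2, 61.1 and 43.6 RPKM of Atp5g1.

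At the blastula stage few subunit genes differed between NT and in vivo embryos in separate fits. In NTC blastulas 2 of 78 were called, where 9.46% of all genes were, and both were higher. Ndufs7, an iron-sulfur subunit of complex I, had 4.94, 4.71 and 3.30 RPKM in NTC and 0.0371, 0.0680 and 0.101 RPKM in in vivo blastulas (+2.30 ± 0.45 SE, adjusted p = 0.0320). Cox7b2 had 2.24, 1.36 and 1.81 RPKM, and 0 in all in vivo blastulas (adjusted p = 0.0470). For both genes the values of the 2 groups did not overlap. In NTM blastulas Ndufs7 had 6.52, 5.49 and 0.507 RPKM. Ndufs7 was no longer called without NTC blastula replicate 2 (+2.24) or in vivo blastula replicate 2 (+2.30) or 3 (+2.32), and Cox7b2 without NTC blastula replicate 2 (+1.59) or any one in vivo blastula (+1.47), by its adjusted p in each case. In NTM blastulas 0 of 75 were called (0.746% of all genes), with 10 at an unadjusted p under 0.05. The median subunit gene was -0.19 in NTC and -0.42 in NTM blastulas relative to in vivo, whereas the median of all genes was +0.85 and +0.86. In the in vivo blastulas 16.6 to 17.1% of all genes were above 1 RPKM, against 28.4 to 30.8% in NTC and 25.4 to 32.4% in NTM blastulas, and the part of this in the result was not tested. The NTC count ran from 0 to 4 when single libraries were left out: 0 without NTC blastula replicate 2, 4 without in vivo blastula replicate 1, and 1 without in vivo blastula replicate 2 or 3. The NTM count was 2 without NTM blastula replicate 3. One fit over all 20 groups called 11 subunit genes in NTC and 14 in NTM blastulas, and without the filter on low values the NTC count was 0.

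Relative to their donor cells, 15 of 80 subunit genes were called in NTC blastulas (24.2% of all genes), 12 lower and 3 higher, and 18 of 80 in NTM blastulas (30.8% of all genes), 12 lower and 6 higher. Ndufa4l2 differed most, by -6.33 ± 1.10 (SE, adjusted p = 0.00641) and -6.46 ± 0.52 (SE, adjusted p = 7.85e-05). Catalytic genes were among those lower in both types, where Ndufv1 differed by -2.48 ± 0.50 and -2.15 ± 0.62, Sdhb by -2.23 ± 0.50 and -2.63 ± 0.55, and Atp5a1 by -4.16 ± 0.39 and -3.38 ± 0.42 (SE). Atp5g1 and Atp5g3 were higher in blastulas of both types than in the donor cells. The donor cells did not differ from each other in any of 81 subunit genes by limma (6 at an unadjusted p under 0.05), where 6.29% of all genes were called. Without CC replicate 3, 1 subunit gene was called.

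In 1-cell embryos, 10 of 59 subunit genes were higher and 4 lower in NTM than in NTC embryos (5.64% and 14.2% of all genes). Cox8a, the common form of the smallest complex IV subunit, had 305, 244 and 234 RPKM in NTM and 66.0, 46.1 and 61.0 RPKM in NTC embryos (+2.16 ± 0.20 SE, adjusted p = 0.000302). Cox7a2, of the same complex, had 46.6, 35.7 and 66.2 and 9.44, 7.08 and 7.63 RPKM (+2.44 ± 0.27 SE, adjusted p = 0.000800). Ndufa4, first assigned to complex I, differed by +2.46 ± 0.41 (SE, adjusted p = 0.00419). Lower in NTM embryos were Sdhc and Sdhd, the membrane anchors of complex II (-2.28 ± 0.34 SE, adjusted p = 0.00273 and -1.58 ± 0.48 SE, adjusted p = 0.0435), and Ndufc2 and Ndufb11 of complex I (-1.76 ± 0.38 SE, adjusted p = 0.0118 and -1.27 ± 0.30 SE, adjusted p = 0.0171). For Cox8a, Cox7a2, Ndufa4 and Sdhc the 2 types did not overlap. Without NTC 1-cell replicate 3 the number called was 8 in place of 14. Sdhd was called without NTM 1-cell replicate 2 and lost its call without any one of the other 5 libraries (-1.68 to -0.99). Ndufb11 lost it without any one NTC library (-1.34 to -1.16) and Ndufc2 without NTC replicate 1 (-1.57).

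The remaining steps moved few subunit genes. Between 1-cell and 2-cell embryos 8 of 66 were called in NTC embryos (13.5% of all genes) and 2 of 64 in NTM embryos (9.40%), and 0 of 57 in in vivo embryos, where 0 of 10854 genes were called at all. In NTC embryos Sdhd (-3.24 ± 0.68), Uqcrc2, a core protein of complex III (-3.05 ± 0.48), Ndufa8 and Sdha were among those that fell, and Atp5b, Atp5g1 and Atp5o rose. Both genes called in NTM embryos, Ndufs4 among them, fell. Between morula and blastula 2 of 78 rose in NTC embryos, Sdhd and Ndufs4 (7.16% of all genes called), and 1 of 76 in NTM embryos, Atp5g2 (+1.79 ± 0.42 SE, adjusted p = 0.0375, 4.22% of all genes). In the latter step 75 of the 76 had a positive change, with a median of +0.97 against +0.58 for all genes. In 18 comparisons of neighbouring stages or of types at 1 stage, the in vivo step between 1-cell and 2-cell embryos included, limma called 0 subunit genes and 0 to 139 of all genes. There 0 to 21 subunit genes had an unadjusted p under 0.05, with 1 of 76 between NTM and NTC 4-cell embryos and 21 of 76 between their morulas. In NTM 1-cell embryos Sdhc was lower than in vivo (-2.62 ± 0.51 SE, adjusted p = 0.0497, 1 of 57, 1.28% of all genes), and in NTM 8-cell embryos Ndufb11 was (-1.91 ± 0.36 SE, adjusted p = 0.0274, 1 of 78, 2.02% of all genes).

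Other gene lists moved as well. Between in vivo 2-cell and 4-cell embryos, 77 of 80 cytosolic ribosomal protein genes rose (median +5.85), 60 of 76 genes of the mitochondrial ribosome (+3.27) and 24 of 41 assembly factor genes for the respiratory complexes (+2.16). In NTC and NTM embryos 69 cytosolic ribosomal protein genes rose, of 77 and 79 tested. Of 17 genes of the citric acid cycle 8 rose and 3 fell in in vivo embryos, and of 12 regulators of mitochondrial biogenesis 5 rose in each embryo type. Over all genes the shares were 31.4% rising and 20.8% falling in in vivo embryos, and 16.4% and 12.1% rising in NTC and NTM embryos. Of the 13 protein genes of the mitochondrial genome, whose products join the same complexes, 3 rose and 5 fell in in vivo embryos (median -0.72), and 7 were higher and 3 lower in NTC than in in vivo 4-cell embryos (+1.12).

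Transcript length and near-identical copies could bear on these values, and a part of the copies was not tested. The subunit genes are short, with a median exon length of 1578 nt (419 to 8086) against 3910 nt for protein-coding genes in the table. In NTC relative to in vivo 4-cell embryos, the median difference of the subunit genes was -2.31 up to 1000 nt, -2.64 from 1001 to 2000 nt, -2.21 from 2001 to 4000 nt and -0.65 above 4000 nt. It was -0.91, -0.79, -0.40 and -0.17 for all genes of those lengths. In each length class the subunit genes were thus lower than all genes, and in both the difference was smallest for the longest. A part of length in the result was not tested further. Of the 86 genes, 22 share at least 150 nt at 97% identity with a transcript of another gene, among them Cycs, Uqcrb, Atp5l, Atp5g1 and Cox7a2l, and reads of these could be split or lost in counting. Exons of 26 overlap those of another gene in the table, none over more than 50% of its length, with 30.0% for Ndufa13 and Tssk6. Uqcr10 and Atp5g3 have neither a near-identical copy nor an overlap.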

How the data were processed

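Polyadenylated RNA of single embryos and of donor cells was amplified by tailing and PCR without molecular identifiers and sequenced, in 3 libraries per group from separate embryos or cell samples. The authors deposited RPKM values per Ensembl gene, computed by them from reads aligned to the mouse genome. GEO's processing notes name Bowtie 0.12.2 and the build mm8, while the study's methods name TopHat, Bowtie2 and HTSeq with a UCSC annotation and call the values FPKM. No coordinates of the table were used. Spike-in RNA was not used here. The values of 1 member are not reported here, although it is part of the counts.

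Gene symbols and exon lengths were taken from GENCODE M21, which held 27013 of the 27238 identifiers, the other 225 being without a symbol. The members and gene lists were chosen with earlier results of these data known. The number of reads behind a library was worked out from the smallest steps of its RPKM values. Genes were kept for a check when most of their values were whole within 0.02 of a read. The 99.99% of whole values in the 15983 genes kept thus follows largely from that choice. Of the 86 subunit genes 55 were kept. The reads worked out served for depth only, and floors cover counting error only. Tests used limma 3.58.1 (R 4.3.3; lmFit and eBayes with trend) on log2(RPKM + 1), over genes with a mean of at least 0.5 RPKM in the libraries compared, in a separate fit for each comparison, with two-sided p-values adjusted by the Benjamini-Hochberg method over all genes tested. Folds on this scale understate changes of low genes. The p-values measure the spread between these samples only. Genes were named as catalytic or electron-carrying subunits (with Cox4i1 and Cox5a for complex IV), as isoforms from separate genes, as the up to 3 called members with the largest rise or fall in each main comparison, or as the up to 5 against the majority. Ndufb2, the genes of counts under 10, the genes that rose in all 3 types and the promoters of Sdhd, Cox6a1 and Atp5l were chosen after the values were seen.

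The alternatives were no fold threshold, a pseudocount of 0.1, no filter, median-ratio scaling, nuclear reads only, a replicate block, one fit with all 20 groups together, leaving out each library, and, added after seeing the data, leaving out the 4-cell libraries. The fits were tested on simulated data. Near-identical transcripts were sought with blastn 2.17.0 (at least 97% identity over 150 nt). Promoter windows were RefSeq's on GRCm38.p6, without those of chromosome 18.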

Additional observations from a re-analysis of the deposited data

Results flagged for a closer look

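The rise of the subunit genes between 2-cell and 4-cell embryos differed between embryo types by the interaction term of limma, in 46 of 84 genes tested for NTC and in 32 of 85 for NTM embryos. All had a smaller rise than in vivo embryos. The number was 0 for both NT types over 2-cell and 8-cell embryos, where the 4-cell libraries of in vivo and NT embryos were replaced together. Between 4-cell and 8-cell embryos 0 of 76 subunit genes were called in NTC and 0 of 77 in NTM embryos. Over all genes tested it was 6 of 10634 and 35 of 9632. In in vivo embryos 62 of 82 subunit genes and 4554 of 10417 genes were called in that step. How far the in vivo 4-cell libraries alone account for the interaction was not tested. No source used here says whether they were prepared or sequenced in another way than the other 57. Groups of 3 libraries were too small to test for single libraries that lie far from the others.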

How the results depend on the processing

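The count of subunit genes called was recomputed 187 times and stayed within 1.5 times the reported one in 161. With in vivo 8-cell in place of in vivo 4-cell libraries it was 43 in place of 72 for the step from 2-cell embryos in vivo, 3 in place of 59 for NTC and 0 in place of 45 for NTM against in vivo embryos. With the 4-cell libraries of all types replaced by 8-cell ones it was 0 for both interactions, in place of 46 and 32. Without a filter it was 16 in place of 26 in NTM embryos between 2-cell and 4-cell stages and 0 in place of 2 for NTC against in vivo blastulas. One fit over all groups gave 51 for that NTM step, 11 and 14 for NTC and NTM against in vivo blastulas, 7 in place of 14 for NTM against NTC 1-cell embryos, 2 in place of 0 for MEFs against CCs, and 1 in place of 0 as the median of the other comparisons. The blastula count of NTC embryos was 1 with median-ratio scaling, whose factors were 1.37 to 1.48 for in vivo 4-cell embryos and 0.546 to 1.48 over all libraries, and 4 with nuclear reads only. The replicate numbers did not pair the samples (correlations of -0.05 to 0.03 between the deviations of same-numbered samples), and with the replicate as a block the only count outside 1.5 times was 0 for NTC against in vivo blastulas. The cause of these shifts was not tested.

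Leaving out single libraries gave 15 to 23 for the NTM step between 2-cell and 4-cell embryos, 0 to 4 and 0 to 2 for NTC and NTM against in vivo blastulas, 8 to 17 for NTM against NTC 1-cell embryos and 0 to 1 for MEFs against CCs. All other counts stayed within 1.5 times. Of 543 recomputed changes of named genes 509 stayed called, 34 lost their call and 0 turned direction, and of 156 recomputed medians 16 moved and 0 turned direction. Depth limits the statements on genes near 0, and 3 libraries per group limit all tests.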
